A study of Mus musculus with 63 samples.

Results

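Mouse embryonic fibroblasts (mEFs) homozygous for the Chd2m allele were compared with wild-type (WT) mEFs by RNA-seq. This comparison uses 5 of the 63 samples of the series, namely 2 Chd2m/m libraries and 3 WT libraries, chosen by the set name that the submitters gave each library. Other libraries enter only where named: Chaserr-/- mEFs and Chaserr-/- Chd2m/m mEFs, each with their own WT, and CHD2 immunoprecipitation in Neuro2a cells. The alternative fit of all mEF libraries also holds Chaserr+/- mEFs and their WT. Every row of the expression tables was taken into account, of which 13777 had enough counts to be tested and 11213 did not. mEFs are primary fibroblast cultures, here prepared at E13.5 from the bodies of embryos of Chd2+/m crosses without head and liver, and both genotypes carried an intact Chaserr locus. Chd2m is a frameshift allele made with CRISPR/Cas9 and 1 guide in CB6F1 Ola HSD mice, and the line was then crossed to C57BL/6 Ola HSD, so its background is mixed. The allele comes from 1 founder and may leave some protein made from a later start codon, so Chd2m/m cells have strongly reduced, not absent, CHD2. The labels do not say whether each library is a separate embryo, so p-values measure the spread between these libraries, part of which may be technical. Libraries are called WT replicates 1 to 3 and Chd2m/m replicates 1 and 2.

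CHD2 is a chromodomain helicase, an ATP-driven enzyme that moves nucleosomes, and it works together with the histone variant H3.3 at transcribed genes. Loss of 1 human CHD2 copy causes an epileptic encephalopathy. Chaserr is a long noncoding RNA transcribed from the same strand just upstream of Chd2, and its loss is known to raise Chd2 mRNA in cis. Chd2m/m cells with intact Chaserr therefore ask what reduced CHD2 does to the transcriptome, and to the RNA of Chd2 and Chaserr themselves.

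The sequences that define the Chd2m allele are shown first, because the mutation leaves the Chd2 transcript in place and only shifts its reading frame. In mm9, Chd2 spans bases 80571577 to 80686632 of chromosome 7 and is read from the minus strand. The guide matched the plus strand at chr7:80664375-80664394, inside coding exon 3 of 39, and is printed 5′ to 3′ with the adjoining PAM in capitals. The primers used for allele-specific qRT-PCR of the WT and mutant alleles differ at their last base, which is in capitals. The WT primer matched chr7:80664369-80664390 on the plus strand, the shared primer matched chr7:80664440-80664459 on the minus strand, and the mutant primer had no match on chromosome 7.
Guide with PAM: agctatccgttccttcttagAGG
WT allele primer: cacatcagctatccgttccttC
Mutant allele primer: cacatcagctatccgttccttT
Shared primer: tgagagtgaatcggcaggtt
The primers differ by C22T, with positions counted from 1 at the 5′ end of the WT primer and the WT base first. Removing bases 80664389 and 80664390, next to the expected Cas9 cut after base 80664391, turns the WT letters into those of the mutant primer. Removing 1 base gives the same letters, so the primers alone do not fix the size of the deletion. With 2 bases removed, the reading frame of 1827 codons changes from codon 89 and meets a stop at codon 94, still within exon 3. The deposited values are counts per gene, in which such a small deletion cannot be seen, so the Chd2 level does not check the genotype labels.

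The 5 libraries held 15038261 to 16720593 counts each and were close to each other in depth. Fibroblast markers were at like levels in all of them: 21 of 22 listed markers, such as Col1a1, Col3a1 and Pdgfrb, had a row and were tested, their log2 fold changes ran from -0.09 to 0.12, and their summed level ran from 24718 to 25527 CPM (counts relative to library size after TMM scaling). The libraries stood apart by sex-linked RNA. Ddx3y, a Y-linked RNA helicase gene, was at 39.1 CPM in WT replicate 3 and 35.6 CPM in Chd2m/m replicate 1, and at 0, 0 and 0.129 CPM in WT replicates 1 and 2 and Chd2m/m replicate 2. Xist, which coats the inactive X chromosome, was at 2539, 2173 and 2386 CPM in the latter 3 libraries and at 1.55 and 0.42 CPM in the other two. Both states thus occurred in both genotypes, and the main results are also given with Y-linked RNA as a covariate and in the Xist-high libraries alone.

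Chd2 mRNA was higher in Chd2m/m mEFs. It was at 27.6, 32.3 and 29.2 CPM in the WT libraries (29.7 ± 2.40, SD, n = 3) and at 46.4 and 47.9 CPM in the Chd2m/m libraries (47.1 ± 1.09, SD, n = 2). Both mutant libraries lay above every WT library, and the gap between the groups was wider than the spread within either. The fold change was 1.59 (95% confidence interval 1.40 to 1.79), a log2 fold change of 0.66 with a standard error of 0.081, and edgeR's quasi-likelihood test gave an adjusted p of 0.045 (Benjamini-Hochberg over all rows). The exact permutation test of Chd2 over the 10 assignments of libraries, made two-sided by doubling the one-sided p, gave p = 0.2. This is the smallest value that this form of the test allows with 2 against 3 libraries, so it could not pass in this design. The size of the difference was stable, from 0.61 to 0.73 on the log2 scale over all alternatives, but the call was not. Of 16 alternatives, 9 kept the call, among them DESeq2 (adjusted p = 0.000108). With edgeR, the adjusted p was 0.00664 with no filter on low counts and 0.0269 with all mEF libraries in 1 fit. The other alternatives lost the call, limma-voom with an adjusted p of 0.0993. The adjusted p was 0.277 without WT replicate 1, 0.0859 without WT replicate 2, 0.117 without WT replicate 3, 0.103 without Chd2m/m replicate 1 and 0.11 without Chd2m/m replicate 2. It was 0.125 with Y-linked RNA as a covariate and 0.0335 in the Xist-high libraries alone.

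Chaserr RNA, listed in the tables as 1810026B05Rik, was not shown to change. It was at 8.45, 9.80 and 8.90 CPM in WT (129, 153 and 144 counts) and at 8.17 and 6.59 CPM in Chd2m/m mEFs (136 and 102 counts). Both mutant libraries lay below the lowest WT library, Chd2m/m replicate 1 by a small margin. The log2 fold change was -0.29 with a 95% confidence interval of -0.62 to 0.03, a fold of 0.817 with bounds of 0.652 and 1.02 (adjusted p = 0.937 from edgeR). Over the alternatives the value ran from -0.47 to -0.15, and no alternative called it.

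**Figure D1:**
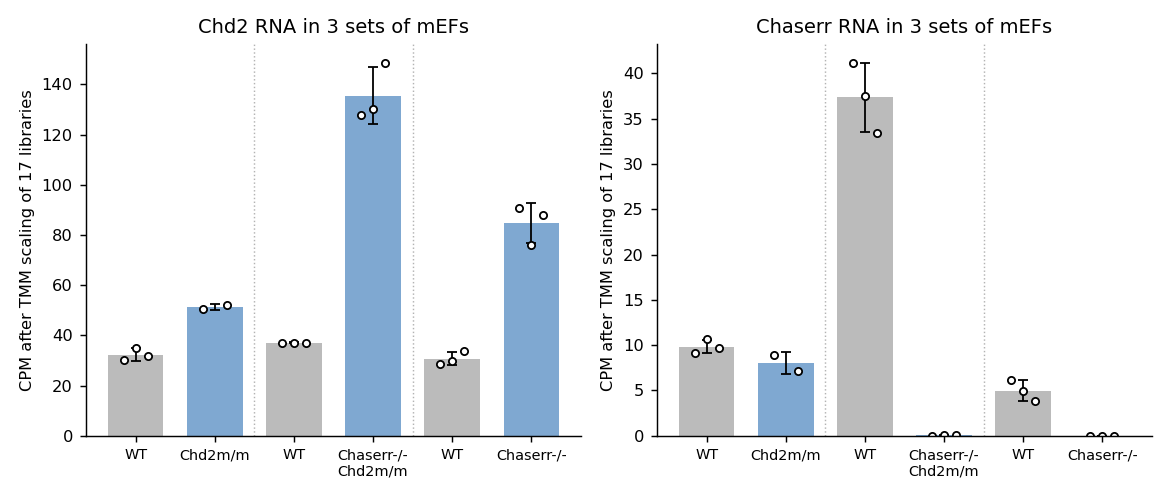
Levels of Chd2 (left) and Chaserr (right) in CPM after joint TMM scaling of 17 mEF libraries, so that values differ slightly from those scaled over 5 libraries. Points are libraries, bars are group means and error bars are SD, with n = 2 for Chd2m/m and n = 3 elsewhere. Chd2 lies higher in each mutant group than in the WT cells of its own set, and Chaserr is at or near 0 in both groups with the Chaserr deletion.

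Across the transcriptome, few rows changed beyond the spread between libraries. Only 2 of the 13777 rows tested (0.0145%) passed at an adjusted p under 0.05, namely Chd2 and a copy row of Eno1b. At an unadjusted p under 0.05 there were 621 rows (4.51%), of which 291 were higher (2.11%) and 330 lower (2.40%) in Chd2m/m mEFs. Groups did not overlap in 1425 rows that were higher (10.3%) and 1428 that were lower (10.4%). The median log2 fold change of all rows was 0.000494 and the median absolute value was 0.0843, beside a median standard error of 0.105. The depth sets how firmly small changes can be set aside: the 95% confidence interval lay within a change of 25% in either direction for 54.2% of rows, from 0.376% of rows with a mean FPKM under 1 to 92.8% of those at 100 or more. For 849 rows at an FPKM of 100 or more, the log2 fold changes ran from -0.75 to 0.31. The number of calls itself varied with the method. DESeq2 called 12 rows and limma-voom none. Without WT replicate 1 or without WT replicate 2 there were 0 calls, and 3, 4 and 8 without WT replicate 3, Chd2m/m replicate 1 and Chd2m/m replicate 2.

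**Figure D2:**
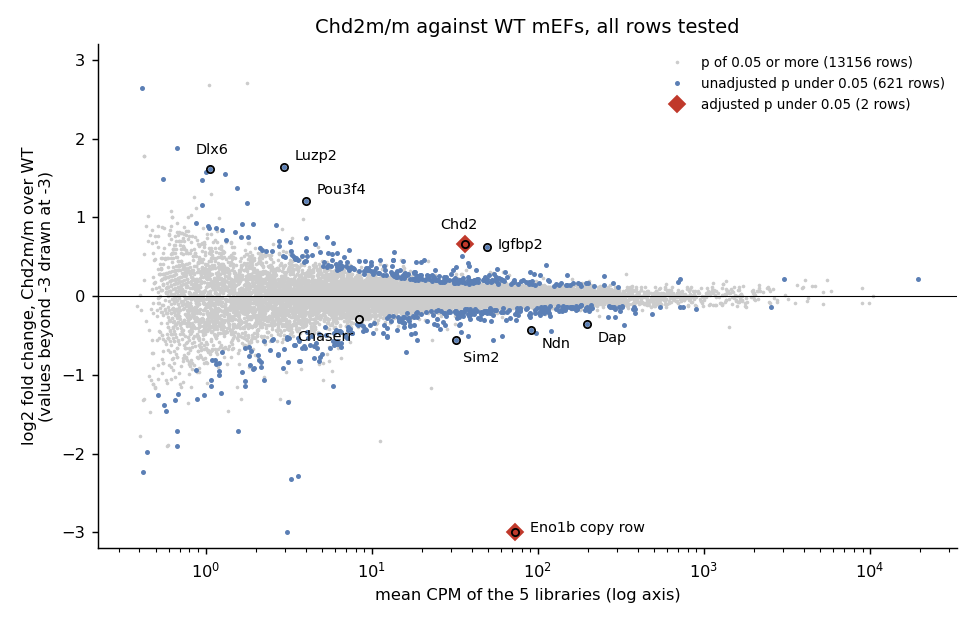
Log2 fold change of Chd2m/m over WT mEFs against mean CPM of the 5 libraries on a log axis, for the 13777 rows tested. Grey points have p of 0.05 or more, blue points an unadjusted p under 0.05 (621 rows), and red diamonds an adjusted p under 0.05 (2 rows). Values beyond -3 are drawn at -3, and the cloud is centred on 0.

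The other call was all or none. Eno1b is a retrogene of Eno1, the glycolytic enzyme enolase, and its copy row, a further placement of the Eno1b transcript in the annotation, had 1135, 1042 and 3635 counts in the WT libraries and 0 and 0 in the Chd2m/m libraries. Against a floor of 3 counts over the mutant group it was at least 1326-fold lower (adjusted p = 0.045 from edgeR, which rests on the same zeros). It was the only row with 0 counts in every library of one group and at least 20 in every library of the other. The first Eno1b row, by contrast, was at 15.0, 16.1 and 13.6 CPM in WT and at 15.4 and 12.3 CPM in Chd2m/m mEFs. With the rows of 1 symbol summed, Eno1b was at 89.1, 83.0 and 238 CPM in WT and at 15.4 and 12.3 CPM in Chd2m/m mEFs (log2 fold change -3.30, standard error 0.46, adjusted p = 0.0747). Rows of near-identical copies share reads that RSEM divides between them, so this zero is uncertain as a change in expression. Eno1 itself, with most of the enolase counts, was at 2066 CPM in WT and 2275 CPM in Chd2m/m mEFs on average (log2 fold change 0.14, adjusted p = 0.937). The call of the copy row was lost without WT replicate 1 (adjusted p = 0.0959), WT replicate 2 (0.0859), Chd2m/m replicate 1 (0.103) or Chd2m/m replicate 2 (0.0592), with limma-voom (0.933) and with all mEF libraries in 1 fit (1). It was kept without WT replicate 3, with DESeq2 and in the Xist-high libraries alone.

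5 further rows had an adjusted p under 0.2, and were named after their values were seen, apart from Pou3f4 and Ndn. Pou3f4, a POU-domain transcription factor of the inner ear and brain, was at 2.49, 2.69 and 2.72 CPM in WT and at 6.25 and 5.95 CPM in Chd2m/m mEFs. The log2 fold change was 1.21 with a standard error of 0.176, and the adjusted p was 0.105. Ndn, the imprinted growth suppressor necdin, was at 100.6, 99.0 and 105.5 CPM in WT and at 72.7 and 78.0 CPM in Chd2m/m mEFs (log2 fold change -0.43, standard error 0.0639, adjusted p = 0.105). For both genes the mutant libraries lay well apart from all WT libraries and close to each other. Luzp2, a leucine zipper protein gene, averaged 1.59 CPM in WT and 4.98 CPM in Chd2m/m mEFs (log2 fold change 1.64, adjusted p = 0.105). Sim2, a bHLH-PAS transcription factor, averaged 37.0 and 25.1 CPM (log2 fold change -0.56, adjusted p = 0.152). Dap, a death-associated protein gene, averaged 217 and 170 CPM (log2 fold change -0.35, adjusted p = 0.152). DESeq2 called Luzp2, Ndn, Sim2 and Dap but not Pou3f4, and without a filter on low counts edgeR called Luzp2, Ndn, Pou3f4 and Sim2. Leaving out single libraries kept each of the 5 directions, which over all alternatives ran from 1.17 to 1.24 for Pou3f4, from -0.48 to -0.36 for Ndn and from 1.45 to 1.77 for Luzp2.

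Apart from the Eno1b copy row, the rows named for the size of their difference were weakly expressed, with group means under 10 CPM. Among rows with no overlap, an unadjusted p under 0.05 and a mean FPKM of 1 or more in the group with more RNA, 10 were named in each direction by size, and apart from Pou3f4 and the Eno1b copy row all of them had an adjusted p of 0.937. On the higher side stood transcription factors, with Dlx6, a homeobox gene of the jaw and limbs, at 0.72, 0.704 and 0.309 CPM in WT against 1.62 and 1.94 CPM in Chd2m/m mEFs (log2 fold change 1.62), and Barx1, a homeobox gene of the branchial arches and stomach (0.86). Krt6a, a keratin of stratified epithelia (1.18), Col26a1, a collagen (0.91), Trpc6, a calcium-permeable channel (0.90), and the histone gene H2ac11 (0.91) belonged there too, as did Vstm2b (0.86), Trim7 (0.84) and Mettl25 (0.75). Ppp1r1b, an inhibitor of protein phosphatase 1, was at 2.03, 1.41 and 3.22 CPM in WT against 0.721 and 1.29 CPM in Chd2m/m mEFs, below all WT libraries (log2 fold change -1.15). The orphan receptor gene Gpr37l1 was at -1.07 and Hpca, a neuronal calcium sensor, at -0.92. The others were the histone gene H3c6 (-1.97), 4833419F23Rik (-1.71), 1600020E01Rik (-0.87) and 3 rows of repeated zinc finger or Gm gene families, Gm14391 (a copy row, -2.33), Zfp967/Zfp966 (-2.29) and Gm3411 (a copy row, -0.87), whose reads are divided between near-identical sequences. Single libraries decided some of these values. The Gm14391 row was called without Chd2m/m replicate 1 and in the Xist-high libraries alone, where the only mutant library left had 0 counts, and was at -1.37 without Chd2m/m replicate 2. Zfp967/Zfp966 was called without Chd2m/m replicate 2, again against a library at 0 counts, and was at -0.93 in the Xist-high libraries alone. Both were also called with the replicate number as a block. In the Xist-high libraries H3c6 was at -0.91 and Krt6a at 0.32, and neither was called under any alternative.

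28 gene lists and 9 marker lists were then read against the background shares given above. None of their members was called, and the counts that follow are of rows with an unadjusted p under 0.05, all with an adjusted p of 0.937 or, for Ndn, 0.105. Values after gene names are log2 fold changes ± their standard errors. Chromatin factors related to CHD2 came first. All 9 other CHD remodellers, from Chd1 to Chd9 and Chd1l, were tested, with log2 fold changes from -0.14 to 0.31 and none at p under 0.05. The interval lay within a change of 25% for 6 of the 9, and not for Chd5 (-0.81 to 0.53), Chd7 (-0.13 to 0.53) and Chd1l (-0.06 to 0.69). The highest was Chd1l, a PARP-dependent remodeller, at 5.17, 5.12 and 5.32 CPM in WT and 5.59 and 7.37 CPM in Chd2m/m mEFs (0.31 ± 0.169). Of 22 remodellers of the SWI/SNF, ISWI, INO80 and related families none passed, their values ran from -0.14 to 0.13, and for 21 of them the interval lay within a change of 25%. None of 15 H3.3 genes and histone chaperones passed either, and for all 15 the interval lay within 25%, the smallest p being that of Hira, which deposits H3.3 (0.16 ± 0.073). None passed among 23 factors of RNA polymerase II pausing, elongation and termination, 22 genes of double-strand break repair, 15 factors of nonsense-mediated decay and 13 SR splicing factors.

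Genes of cell growth and division differed little. Of 24 S phase genes, 18 lay below 0 and none passed, with a median log2 fold change of -0.03, and Pcna, the sliding clamp of DNA polymerase, was at -0.11. Of 20 genes of G2 and mitosis, 16 lay below 0 and none passed, with a median of -0.06. Cdk1, the mitotic kinase, was at 145, 137 and 129 CPM in WT and 130 and 115 CPM in Chd2m/m mEFs, so the groups overlapped (-0.16 ± 0.0722). Among 22 p53 targets, 18 lay above 0 with a median of 0.04 and none passed, and Ccng1, a cyclin induced by p53, went the other way at -0.11. The ERK response held 1 lower gene of 23, Phlda1 (-0.21 ± 0.083), which restrains growth factor signalling. Of 15 targets of TGF-beta and YAP signalling, 12 lay above 0 and 1 passed, the actin-binding protein gene Tagln, at 2467, 3229 and 2881 CPM in WT and 3172 and 3484 CPM in Chd2m/m mEFs (0.22 ± 0.0969), where Chd2m/m replicate 1 lay within the WT range. Of 17 senescence and secreted factors, Igfbp3, which binds insulin-like growth factors, was at 55.8, 55.2 and 62.9 CPM in WT and 71.3 and 71.6 CPM in Chd2m/m mEFs (0.30 ± 0.0738). The chemokine gene Ccl7 was at 0.24 ± 0.0839.

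Metabolic and stress lists held few genes at an unadjusted p under 0.05. Of 24 genes of cholesterol synthesis none was higher and 3 were lower, against background shares of 2.11% and 2.40% of all rows, and the median was -0.03. Without overlap, 4 of the 24 lay above all WT libraries and 7 below, beside 10.3% and 10.4% of all rows. Idi1, the isomerase that makes the second isoprenoid building block, was at 134, 125 and 123 CPM in WT and 97.8 and 116 CPM in Chd2m/m mEFs (-0.25 ± 0.0765), and Tm7sf2 (-0.46 ± 0.194) and Msmo1 (-0.17 ± 0.0731) are later enzymes of the same route. Srebf2, the transcription factor that activates these genes, was at 0.12 ± 0.0558. Of 23 genes of the integrated stress response and the unfolded protein response none was higher and 3 were lower: Nupr1, a stress-induced chromatin protein gene (-0.39 ± 0.12), Dnajb9, a chaperone of the endoplasmic reticulum (-0.19 ± 0.075), and Psat1, an enzyme of serine synthesis (-0.16 ± 0.0642). Among 21 genes of hypoxia and glycolysis, 18 lay above 0 with a median of 0.08. Adm, the peptide hormone adrenomedullin, was at 48.9, 47.6 and 54.7 CPM in WT and 63.4 and 58.8 CPM in Chd2m/m mEFs (0.28 ± 0.0787), while the oxidase gene Ero1a was lower (-0.17 ± 0.0583). Of 34 nuclear genes of oxidative phosphorylation 1 was higher, Ndufs7 of complex I (0.20 ± 0.0731), and for 32 of them the interval lay within a change of 25%. Of 80 cytosolic ribosomal protein genes 2 were lower, Rpl22l1 (-0.46 ± 0.149) and Rpl5 (-0.14 ± 0.0634). Of 19 adipogenesis genes 1 was lower, the fatty acid transporter Cd36 (-0.48 ± 0.193), and of 23 interferon-stimulated genes 1 was higher, Xaf1 (0.46 ± 0.131).

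Developmental, imprinted and noncoding genes were read in the same way. Of 35 Hox genes, which encode position along the body axis, none was higher and 4 were lower at p under 0.05. Of all rows, 2.11% were higher and 2.40% lower. Without overlap, 10 Hox genes lay below all WT libraries and 1 above, beside 10.4% and 10.3% of all rows. Hoxb5 was at 7.53, 7.30 and 8.59 CPM in WT and at 5.04 and 6.08 CPM in Chd2m/m mEFs (-0.49 ± 0.159). Hoxc6 was at 53.5, 53.5 and 56.0 CPM in WT and 49.4 and 43.9 CPM in Chd2m/m mEFs (-0.22 ± 0.0745). Hoxa5 (-0.31 ± 0.134) was also among the 4, although its groups overlapped. The median of the list was -0.03, with 17 genes above 0 and 18 below. Of 25 imprinted genes with a row, 1 was higher, Peg10, a retrotransposon-derived placental gene (0.21 ± 0.0645), and Ndn was lower. Of 26 long noncoding RNAs, the snoRNA host gene Snhg17 was higher (0.27 ± 0.0866) and Snhg15 lower (-0.35 ± 0.1). Of 15 clustered protocadherins 11 lay above 0 with a median of 0.19, none at p under 0.05, and no interval lay within a change of 25%, since all were weakly expressed. Of 34 genes of epileptic encephalopathy measured in these fibroblasts, 14 lay above 0 and 20 below, with a median of -0.03. Of the 11 genes that the study names for other mutants, none passed and values ran from -0.14 to 0.22, among them the lysosomal protease gene Ctsk (0.22 ± 0.12) and Actb (-0.09 ± 0.0486).

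**Figure D3:**
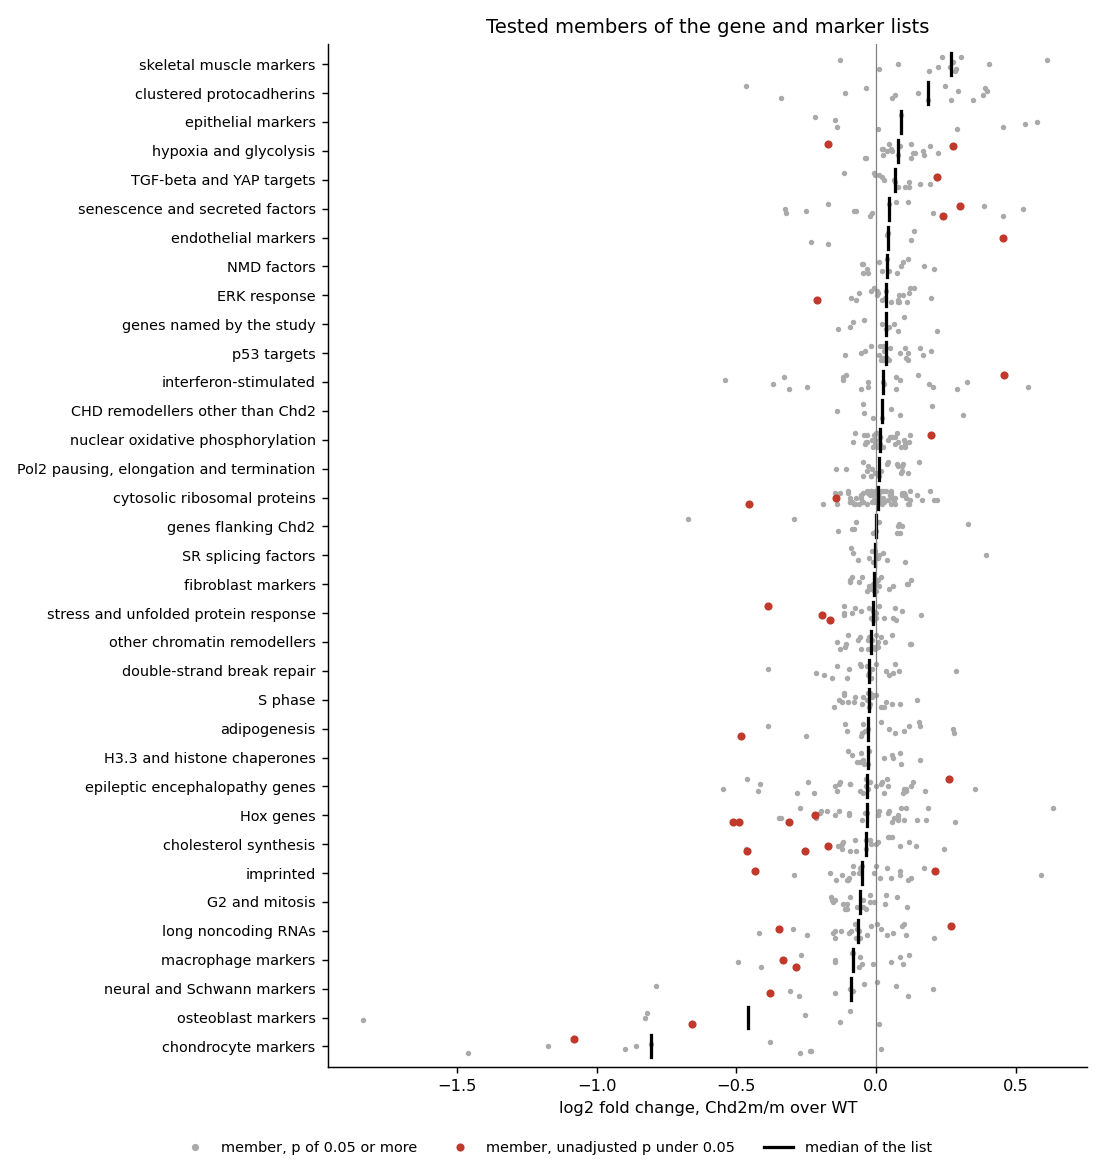
Log2 fold change of Chd2m/m over WT mEFs for every tested member of the gene and marker lists other than the sex-linked genes, ordered by the median of the list (black bars). Red points have an unadjusted p under 0.05, and no member of a list passed after adjustment. Most medians lie near 0, and the chondrocyte and osteoblast markers lie lowest, at -0.80 and -0.46.

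Markers of other cell types varied between libraries of the same genotype. In bulk RNA, fewer cells of a type and less RNA per cell cannot be told apart. Of 11 chondrocyte markers, 10 lay below 0 in Chd2m/m mEFs with a median of -0.80, and 1 passed at an unadjusted p under 0.05, Col11a2 (-1.08 ± 0.453). Hapln1, a cartilage link protein gene, was at 52.3, 27.2 and 8.53 CPM in WT and at 10.1 and 15.9 CPM in Chd2m/m mEFs, so WT replicate 3 lay below both mutant libraries. Col2a1, the main cartilage collagen, was at -0.23. Their summed level was 286, 211 and 138 CPM in WT and 162 and 176 CPM in Chd2m/m mEFs. Of 8 osteoblast markers tested, 7 lay below 0 with a median of -0.46. Pth1r, the parathyroid hormone receptor, was at 7.59, 7.36 and 4.88 CPM in WT and 3.90 and 4.46 CPM in Chd2m/m mEFs (-0.66 ± 0.214). Ibsp, bone sialoprotein, was at 13.6, 33.3 and 0.371 CPM in WT and 0.12 and 8.86 CPM in Chd2m/m mEFs. The libraries with the least Ibsp in each genotype, WT replicate 3 and Chd2m/m replicate 1, were those with Y-linked RNA. Of 14 skeletal muscle markers 13 lay above 0 with a median of 0.27 and none passed, and their summed level ran from 514 to 849 CPM in WT and was 664 and 936 CPM in Chd2m/m mEFs. Of 17 macrophage markers, 13 lay below 0 and 2 were lower at p under 0.05, Tyrobp (-0.33 ± 0.125) and Ctss (-0.29 ± 0.126). Their summed level was 345 to 474 CPM in WT and 391 CPM in both mutant libraries. Of 7 endothelial markers 5 lay above 0 and 2 below, with a median of 0.04, and 1 was higher, Tek (0.46 ± 0.204). Of 12 neural and Schwann markers 4 lay above 0 and 8 below, with a median of -0.09, and 1 was lower, Snap25 (-0.38 ± 0.17). No epithelial marker of 9 passed, and no erythroid marker had enough counts to be tested. The part of these cell types in the gene list results was not tested.

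**Figure D4:**
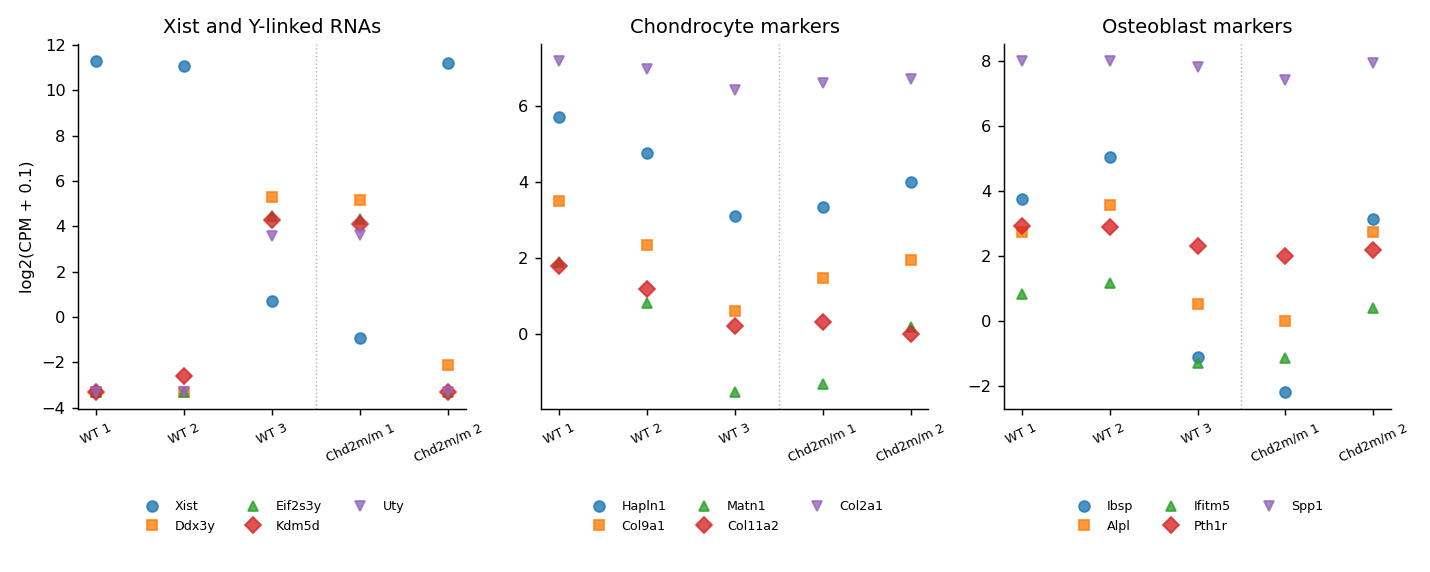
Levels per library, as log2(CPM + 0.1), of Xist and 4 Y-linked RNAs (left), 5 chondrocyte markers (middle) and 5 osteoblast markers (right), with the dotted line between WT and Chd2m/m libraries. Xist is high in WT 1, WT 2 and Chd2m/m 2, Y-linked RNA is present in WT 3 and Chd2m/m 1, and the latter pair has the lowest Ibsp.

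Rows were also grouped by position, tandem organisation and binding by CHD2. Near the mutation, a haplotype linked to the allele would be inherited with it. Chaserr had no position in the annotation and was left out. Within 5 Mb of Chd2, none of 12 tested genes passed at an unadjusted p under 0.05. From 5 to 20 Mb it was 7 of 135 (5.19%), on the rest of chromosome 7 it was 5.52% of 852 rows, and on other chromosomes 4.35% of 12170 rows, against 4.51% of all rows. Genes flanking Chd2 ran from -0.67 for the synaptic vesicle gene Sv2b (standard error 0.318), at 1.83, 1.41 and 1.55 CPM in WT and 0.901 and 1.10 CPM in Chd2m/m mEFs, to 0.33. Igf1r, the receptor of insulin-like growth factors, was at 0.09. Among the 7 rows between 5 and 20 Mb were Luzp2, 18.05 Mb from Chd2, Ndn, 11.08 Mb away, Anpep, an aminopeptidase gene (6.28 Mb, -0.36 ± 0.0887), and Ramac, a cofactor of mRNA cap methylation (8.22 Mb, -0.28 ± 0.0698). The strain of origin of these regions was not examined, and the part of a linked haplotype was not tested.

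**Figure D5:**
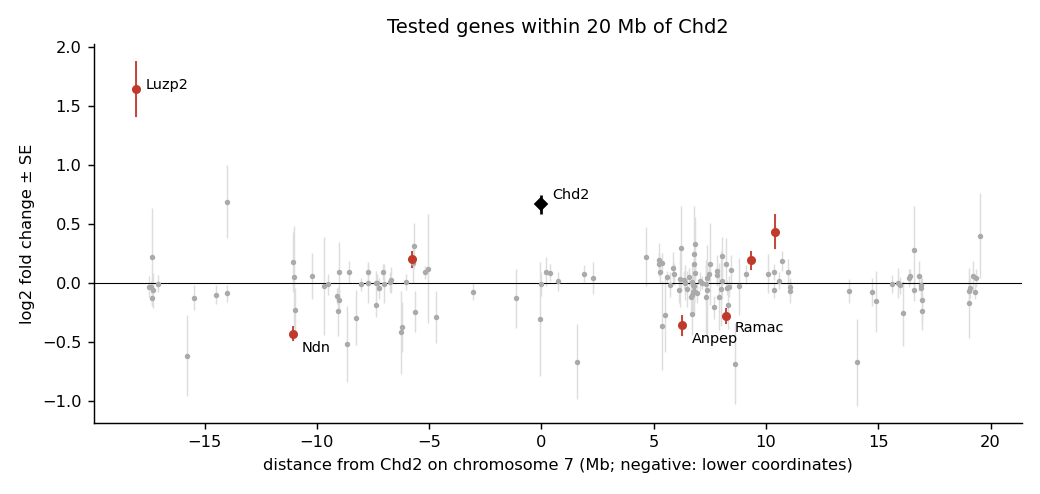
Log2 fold change (points, with standard errors as bars) of tested genes within 20 Mb of Chd2 on chromosome 7, against distance in Mb. Red points have an unadjusted p under 0.05 and the black diamond is Chd2, and no gene within 5 Mb of Chd2 is red.

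Close tandem genes were those within 2 kb of the 3′ end of an upstream neighbour transcribed in the same direction at an FPKM of 10 or more, an order like that of Chaserr and Chd2. Of 243 such genes 9 were higher and 2 lower at an unadjusted p under 0.05 (4.53%). The share was 4.30% of 10458 distant genes, which lay over 10 kb from the nearest upstream 3′ end on their strand, whatever that neighbour's level. The close tandem genes had a median log2 fold change of 0.06, against -0.004 for the distant genes, and 154 of the 243 lay above 0. Without overlap, 43 were higher and 21 lower. Of the 10458 distant genes 5071 lay above 0, and 1015 were higher and 1122 lower without overlap, beside 10.3% and 10.4% of all rows. The lean of the close tandem genes to the higher side was not tested. Rows without a position could not serve as neighbours. Chaserr was one of them, so Chd2 itself was counted among the distant genes. CHD2-bound RNAs were defined from the RNA immunoprecipitation of CHD2 in Neuro2a neuroblastoma cells as those above the IgG control at an adjusted p under 0.05. The deposited expected counts of each row were used, whereas the study counted reads over whole gene bodies, so its bound set can differ. Chd2 itself was in the class. Of 1550 bound rows tested in mEFs, 4.00% passed at an unadjusted p under 0.05, against 4.49% of 11495 rows that were not bound, with medians of -0.008 and 0.002. By direction, 24 bound rows were higher and 38 lower at that limit, with 728 of all bound rows above 0 and 822 below. Among rows that were not bound, 251 were higher and 265 lower, with 5827 above 0 and 5668 below. This difference in direction was not tested.

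The increase of Chd2 RNA was smaller in Chd2m/m mEFs than in cells that also lacked Chaserr. Chaserr-/- Chd2m/m mEFs and Chaserr-/- mEFs were each compared with the WT mEFs of their own set, in 1 fit of 17 libraries with 15086 rows tested, and the sets shared no WT library. On this scale Chd2 was at 32.3 ± 2.58 CPM in WT (SD, n = 3) and 51.2 ± 1.11 CPM in Chd2m/m mEFs (SD, n = 2), at 37.0 ± 0.16 and 135.5 ± 11.5 CPM in the double mutant set (SD, n = 3 each), and at 30.7 ± 2.66 and 84.9 ± 7.96 CPM in the Chaserr-/- set (SD, n = 3 each). The log2 fold change of Chd2 in Chd2m/m mEFs was lower by 1.21 than in double mutant mEFs, with a standard error of 0.149 and a 95% confidence interval from -1.52 to -0.89 (adjusted p = 0.00222 for the interaction, edgeR). Without Chd2m/m replicate 1 this adjusted p was 0.0592. Against Chaserr-/- mEFs the difference was -0.80 with a standard error of 0.15 (adjusted p = 0.0313), and this call was lost without any 1 of the 5 libraries of the Chd2m/m set or the 3 WT libraries of the Chaserr-/- set, with adjusted p values from 0.0504 to 0.183. Chaserr had 0, 1 and 1 counts in double mutant mEFs and 0 in each Chaserr-/- library, against 102 to 153 counts in the libraries of the Chd2m/m set.

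Chd2 and Chaserr were the only rows whose change differed between Chd2m/m and double mutant mEFs (2 of 15086, 0.0133%, with 649 at an unadjusted p under 0.05). In that fit, 59 rows were called in the double mutant cells. The count was 1 without Chd2m/m replicate 1 and 7 without replicate 3 of the WT mEFs of the double mutant set, and DESeq2 called 12. Chaserr-/- mEFs, in which 4261 rows were called, differed in their change from Chd2m/m mEFs in 652 rows (4.32%), 182 above 0 and 470 below. Of these 652 rows, 649 were called in Chaserr-/- mEFs in the fit of 17 libraries. In the separate fit of 5 libraries, 2 were called in Chd2m/m mEFs against WT. The 2 fits differ in power and the rows were selected by the difference. Neither these counts nor the sizes in the 2 mutants are therefore compared. The rows include Snhg15 (difference -1.73), the isomerase gene Idi1 (-1.51), Smarca5 (-1.41), the p53 target Ccng1 (-1.41), Rpl22l1 (-2.28), Ctsk (1.13) and Pou3f4 (2.03). The count of 652 depended on single libraries of every group. It was 3 without Chd2m/m replicate 1 or 2, 6, 4 and 5 without WT replicates 1, 2 and 3, 348, 2848 and 1010 without Chaserr-/- replicates 1, 2 and 3, and 5, 23 and 6 without replicates 4, 5 and 6 of its WT mEFs. The Chaserr deletion of the double mutant was made anew on the Chd2m/m background. Beyond each set's own WT libraries, a difference of set and a difference of genotype cannot be told apart. Chaserr, for example, was at 37.4 CPM in the WT mEFs of the double mutant set, 9.83 CPM in those of the Chd2m/m set and 4.98 CPM in those of the Chaserr-/- set.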

How the data were processed

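Poly(A) RNA of mEFs was sequenced as strand-specific, paired-end libraries (Lexogen SENSE mRNA-seq kit). The authors quantified reads with RSEM on a RefSeq annotation with an edited last exon of Chaserr, and the submitters' processing notes name mm9 (the RSEM version and aligner settings are not given in the sources used here). The deposited tables give an expected count and an FPKM for each row, without scaling between libraries. The deposited FPKM values served only to set level limits. Expected counts (7.72% to 8.05% of rows not whole) were rounded to whole numbers. The main test was the quasi-likelihood test of edgeR 4.0.16, run in R 4.3.3 after filterByExpr and TMM scaling, with Benjamini-Hochberg adjustment and calls at an adjusted p under 0.05. The biological coefficient of variation was 0.077 with 3 residual degrees of freedom. The differences between sets were interaction contrasts in a fit of 17 libraries. DESeq2, the tool of the authors (here version 1.42.0), and limma 3.58.1 served as alternatives. Scripts were tested on simulated data.

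Symbols came from RefSeq (GRCm38.p6) and positions from GENCODE vM1 (mm9), which placed 85.4% of rows. Rows joining several genes (374), further transcript copies (1141) and 28 rows without a symbol were kept. Guide and primer sequences came from the study's oligonucleotide list and were located in mm9. A count of 0 was given a floor of 3 counts over the group, which covers counting error only.

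Named rows were Chd2 and Chaserr, all calls, up to 10 rises and 10 falls by size (unadjusted p under 0.05, no overlap, and a mean FPKM of 1 or more in the group with more RNA), up to 4 members of each list by smallest p, all members of the lists of CHD remodellers, flanking, sex-linked and study-named genes, and all-or-none rows. Other names were chosen after their values were seen, and some rows that the rule names are not reported here. Members, lists and tests were chosen with earlier results of these data known. Replicate numbers were not taken as pairs. Deviations of WT and Chd2m/m libraries with the same number correlated at -0.044 for replicate 1 and 0.131 for replicate 2. WT replicate 3 and Chd2m/m replicate 1 correlated at 0.154. With 2 mutant libraries, their deviations from the group mean mirror each other, so these correlations cannot decide on pairing.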

Additional observations from a re-analysis of the deposited data

Results flagged for a closer look

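The change in Chd2m/m mEFs differed from that in another mutant, by a test of the difference itself, for the rows below. Against Chaserr-/- Chd2m/m mEFs, the difference in log2 fold change was -1.21 for Chd2 and 9.02 for Chaserr. Against Chaserr-/- mEFs it was -0.80 for Chd2 and 8.76 for Chaserr. The values of Chaserr are fitted against libraries at or near 0 counts and depend on the prior count, as does the -15.99 of the Eno1b copy row, so none of these 3 is a bound.

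Among the other named rows, the difference from Chaserr-/- mEFs was above 0 for Pou3f4 (2.03), Vstm2b (2.05), Ctsk (1.13), Igfbp3 (0.98), Tagln (0.64) and the SWI/SNF helicase gene Smarca4 (0.63). It was below 0 for Zfp967/Zfp966 (-6.73), Rpl22l1 (-2.28), Snhg15 (-1.73), Idi1 (-1.51), Smarca5 (-1.41), Ccng1 (-1.41), Dnajb9 (-1.26), Top2a (-0.86), Ero1a (-0.86), Msmo1 (-0.85), Rpl5 (-0.85) and Cdk1 (-0.66). These rows were named for their values in Chd2m/m mEFs and then chosen by the difference, so nothing is read from the directions they share. The size for Zfp967/Zfp966 is uncertain, since a Chd2m/m library had 0 counts in that row. Its log2 fold change against WT ran from -9.39 to -0.93 over the alternatives. In Chaserr-/- mEFs the log2 fold change was, for example, -0.82 for Pou3f4, -1.18 for Vstm2b, -0.92 for Ctsk and -0.68 for Igfbp3. It was 1.26 for Idi1, 1.27 for Smarca5, 1.30 for Ccng1, 1.07 for Dnajb9 and 1.82 for Rpl22l1. In Chd2m/m mEFs none of the 18 passed the test against WT, which came from the separate fit of 5 libraries. Against double mutant mEFs, none of these 18 rows had an adjusted p under 0.05 for the difference.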

How the results depend on the processing

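The count of 2 calls between Chd2m/m and WT mEFs stayed at 2 with RLE scaling, library totals and Y-linked RNA as a covariate (chosen after seeing the data), which called another second row in place of Chd2. It was 12 with DESeq2, 6 without a filter, 1 with at least 10 counts in every library, 1 with all mEF libraries in 1 fit, 3 with rows of 1 symbol summed, 0 with limma-voom and 18 in the Xist-high libraries alone (also chosen after seeing the data), and ran from 0 to 8 when single libraries were left out. With the replicate number as a block, which leaves WT replicate 3 without a partner, it was 99, with Ddx3y and Xist among the calls, and the numbers are not taken as pairs. Chd2 was at 0.67 on the log2 scale with limma-voom (adjusted p = 0.0993) and 0.67 with the covariate, and at 0.61 to 0.73 without single libraries. Against double mutant mEFs the count of 2 was 12 with DESeq2, 1 with the replicate block and 1 to 7 without single libraries, and the difference of Chd2 was -1.21 with the block (adjusted p = 0.0845) and -1.26 to -1.13 without single libraries. Against Chaserr-/- mEFs the count of 652 was 2204 with DESeq2, 2 with the replicate block and 3 to 2848 without single libraries, and the difference of Chd2 was -0.81 with the block (adjusted p = 0.16) and -0.88 to -0.74 without single libraries. Leaving aside Chd2 and Chaserr, of 1456 fits of 92 named rows under an alternative, 1409 kept direction and side of the threshold, 40 gained a call, 6 lost one (all 6 of the Eno1b copy row), and 1 reversed: the osteoblast marker Alpl was at -0.83, at 0.01 without Chd2m/m replicate 1 and at -2.87 without Chd2m/m replicate 2. With 2 mutant libraries and 3 residual degrees of freedom, changes of weakly expressed genes were hardly detectable at this depth. The cause of these dependences was not tested.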

Other observations

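The Hox genes split by paralog group, a division made after their values were seen and given here without a test. All 10 tested genes of groups 10 to 13, which pattern the caudal trunk and distal limbs, lay above 0 in Chd2m/m mEFs, with log2 fold changes from 0.05 to 0.63 and a median of 0.08. Of the 25 tested genes of groups 1 to 9, 18 lay below 0, with a median of -0.13, and 10 lay below all WT libraries without overlap, beside 10.4% of all rows. The highest of all was Hoxc11 (0.63). Summed over groups 1 to 9, levels were 433.5, 482.2 and 461.5 CPM in WT and 407.2 and 435.5 CPM in Chd2m/m mEFs, so the groups overlapped. Summed over groups 10 to 13 they were 108.4, 103.5 and 105.2 CPM in WT and 117.5 and 107.1 CPM in Chd2m/m mEFs, which also overlapped.

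Of 471 tested X-linked rows 292 lay below 0, with a median of -0.03, in a design where 2 of 3 WT libraries and 1 of 2 Chd2m/m libraries were Xist-high. Pou3f4, the X-linked row named for its size, was at 1.20 in the Xist-high libraries alone, against 1.21 in all 5. Some markers of cartilage, bone and muscle varied within genotypes. Matn1, a cartilage matrix protein gene, was at 3.60, 1.66 and 0.247 CPM in WT and 0.30 and 1.03 CPM in Chd2m/m mEFs. Spp1, osteopontin, was at 259, 260 and 227 CPM in WT and 173 and 245 CPM in Chd2m/m mEFs. Ryr1, the calcium release channel of muscle, was at 1.05, 1.73 and 2.10 CPM in WT and 1.98 and 3.04 CPM in Chd2m/m mEFs.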
